A study of Mus musculus with 24 samples.

Results

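Ak6, 1110004F10Rik, Thoc7, Fam204a, Supt16, Zfp131, Ncln and Narf are 8 of the 16730 genes counted by 3′ RNA sequencing of mouse epididymal white adipose tissue (eWAT). They were selected by name, as genes of general cell upkeep that were labelled in plots of high-fat diet (HFD) against chow. 7 of them carry a label in the plot of the Lama4 fl/fl mice, Ak6 and Fam204a also in that of the Lama4 AKO mice, and Narf in neither, so what chose Narf is not known. The study's key to its gene names has Supt6 and neither Supt16 nor 1110004F10Rik, so the labels of Supt16 and 1110004F10Rik rest on the plot alone. The measured difference between diets in the fl/fl mice therefore chose the genes and is given here only as a description. All 8 had counts in all 24 libraries and passed the filter on low counts, as did 15020 genes in all.

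The 8 genes act at several steps between chromatin and protein. Supt16 encodes the large subunit of FACT, a histone chaperone that lets RNA polymerase II pass through nucleosomes, and Zfp131 encodes a transcription factor of the BTB zinc finger family. Thoc7 is a subunit of the THO complex, which couples transcription to packaging and export of mRNA. Ak6 is a nuclear adenylate kinase needed for late maturation of the small ribosomal subunit. Ncln encodes nicalin, an endoplasmic reticulum membrane protein that works with Nomo1 and Tmem147 beside the protein translocon. Narf binds prelamin A, the precursor of a nuclear lamina protein. The functions of Fam204a and 1110004F10Rik are little described. Genes of this kind are often called housekeeping genes because most cell types use them, which is no statement on whether their level is constant.

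The eWAT came from 24 male mice, 6 in each of 4 groups, fed chow or HFD with 45% fat for 20 weeks. Lama4 fl/fl mice carry loxP sites around exon 3 of the laminin alpha 4 gene in both alleles and served as controls. Lama4 AKO mice are floxed littermates that also carry Cre driven by the adiponectin promoter, which deletes exon 3 in adipocytes and leaves other cells of the fat pad untouched. Each library was 1 mouse according to the labels, and ages are not in the labels used here.

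Library totals lay between 5579590 and 18764516 counts, the lowest being replicate 5 of the chow-fed AKO mice. The tissue label was checked with markers: all 6 adipocyte markers were present in every group, and of 6 markers of epididymis epithelium only 2 had a row in the counts, with a summed level of 0 to 17.6 CPM (counts scaled to a common library size). Lama4 itself lay between 5.02 and 7.62 on the log2 CPM scale in the fl/fl libraries and between 5.19 and 7.06 in the AKO libraries. Among chow-fed mice the ranges overlapped, at 5.37 to 7.62 in fl/fl and 6.01 to 7.06 in AKO libraries. The study reported a lower Lama4 level in eWAT of chow-fed AKO mice by quantitative PCR. The reason for this difference was not tested. Tags from the 3′ end of a transcript need not report the loss of exon 3, so this level is no check of the genotype. A principal component analysis of all genes kept, without the 8, placed 45.8% of the variance on its first component. On it, HFD-fed fl/fl replicates 1, 2 and 5 lay at 73.4, 48.3 and 48.1 and replicates 3, 4 and 6 at -9.82, -76.1 and -60.4, while replicate 3 of the chow-fed fl/fl mice lay at 46.7, among the HFD-fed libraries. Chow-fed AKO replicates 5 and 6 lay at 22.1 and 3.01, and the other chow-fed AKO libraries at -35.3 or below. HFD-fed AKO replicate 6, at 0.833, also stood apart from its group. The study removed outlier libraries without naming them. An earlier analysis of these data inferred that 19 mice were kept, without fl/fl replicates 3 on chow and 3, 4 and 6 on HFD and without AKO replicate 5 on chow. That set is an inference, it was chosen on expression, and its smaller errors follow in part from that choice, so values are given with and without it.

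RefSeq promoter windows (GRCm38.p6, 250 bases before to 50 bases after the start) were found for 7 of the 8 genes, 9 windows in all, and none for Fam204a. The window of 1110004F10Rik lies inside the span given for this gene below, which starts at chr7:116039397. Its RefSeq start is therefore not the start of that span. Since 7 of the 8 genes had lower levels on HFD and Ncln a higher one, windows of 4 of the former and that of Ncln are shown to let their sequence be compared. Each is written 5′ to 3′ on the strand of the gene, and capitals mark matches, on either strand, to the CCAAT box (CCAAT), the GC box (GGGCGG), the ETS motif (CCGGAAG), a palindrome core found in ubiquitous promoters (CGCGAGA), the TATA box (TATAAA), the NRF1 motif (GCATGCGC) or the YY1 motif (AAGATGGC).
Supt16, reverse strand, chr14:52197190-52197489: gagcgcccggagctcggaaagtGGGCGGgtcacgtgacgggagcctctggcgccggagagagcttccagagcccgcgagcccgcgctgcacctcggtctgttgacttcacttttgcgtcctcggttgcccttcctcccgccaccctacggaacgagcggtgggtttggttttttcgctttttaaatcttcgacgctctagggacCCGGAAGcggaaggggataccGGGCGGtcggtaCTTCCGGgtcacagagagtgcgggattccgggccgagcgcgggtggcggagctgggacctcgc
Ak6, forward strand, chr13:100651093-100651392: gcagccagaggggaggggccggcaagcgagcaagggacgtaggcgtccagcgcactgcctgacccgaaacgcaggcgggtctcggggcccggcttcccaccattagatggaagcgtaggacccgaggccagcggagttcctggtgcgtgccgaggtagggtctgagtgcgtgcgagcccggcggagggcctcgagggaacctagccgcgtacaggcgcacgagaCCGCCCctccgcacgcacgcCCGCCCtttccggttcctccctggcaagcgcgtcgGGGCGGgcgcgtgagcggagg
1110004F10Rik, forward strand, chr7:116093130-116093429: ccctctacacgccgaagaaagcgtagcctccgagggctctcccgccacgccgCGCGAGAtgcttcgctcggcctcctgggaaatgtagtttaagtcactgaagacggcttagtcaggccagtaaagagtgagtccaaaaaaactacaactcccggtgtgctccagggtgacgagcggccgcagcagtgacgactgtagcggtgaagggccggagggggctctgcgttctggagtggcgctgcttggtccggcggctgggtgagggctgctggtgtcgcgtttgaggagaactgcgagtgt
Narf, forward strand, chr11:121236986-121237285: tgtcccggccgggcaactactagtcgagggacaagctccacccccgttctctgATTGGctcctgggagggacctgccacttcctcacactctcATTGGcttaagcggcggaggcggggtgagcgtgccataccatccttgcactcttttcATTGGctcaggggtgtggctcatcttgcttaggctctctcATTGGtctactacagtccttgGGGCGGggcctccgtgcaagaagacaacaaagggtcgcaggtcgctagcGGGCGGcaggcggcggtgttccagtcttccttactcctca
Ncln, reverse strand, chr10:81496314-81496613: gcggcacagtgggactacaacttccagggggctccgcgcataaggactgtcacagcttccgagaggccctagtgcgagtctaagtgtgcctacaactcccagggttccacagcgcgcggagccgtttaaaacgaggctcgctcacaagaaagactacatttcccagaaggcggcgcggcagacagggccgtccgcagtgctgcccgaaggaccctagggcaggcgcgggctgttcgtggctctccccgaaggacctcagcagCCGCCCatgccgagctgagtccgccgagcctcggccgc

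The GC box was found in at least 1 window of 6 of the 7 genes, and in 7 of the 9 windows. It was found in 35.7% of all 32851 mouse promoter windows and 60.2% of the 13461 windows of genes tested here. CCAAT was found for Narf and Zfp131 (37.1% of the windows of genes tested), CCGGAAG for Supt16 (16.1%) and CGCGAGA for 1110004F10Rik (4.84%). No window held TATAAA (7.76%), GCATGCGC (4.78%) or AAGATGGC (4.09%). CpG counts ran from 7, in 1 of the 2 windows of Thoc7, to 54, in the other, against a median of 19 in the windows of genes tested. Supt16 carried 2 matches to CCGGAAG and Narf 4 to CCAAT. The promoter of Ncln held 27 CpG and 1 GC box, and nothing counted here set it apart from the windows of the 6 genes with lower levels on HFD that had one. These matches describe letters in a window and not binding.

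The question of the diet comparison was which genes of eWAT respond to HFD in each genotype. The AKO mice are the libraries that did not choose 1110004F10Rik, Thoc7, Supt16, Zfp131 and Ncln, so these 5 were tested there, with edgeR's quasi-likelihood test over all genes. The fit of all 24 mice takes 1 estimate of the spread per gene from all 4 groups. The fl/fl libraries therefore enter the errors of this test, though not its fold changes between diets. In the AKO mice, 7 of the 8 genes had lower levels on HFD, to between 30.5% and 57.6% of the chow level, and Ncln was at 125%. A gene counted as called when levels differed by 1.5 times or more, the nominal p was 0.001 or lower and the mean reached 2 CPM. None of the 5 genes met it with all 24 mice. 4 of the 5, all lower, had a nominal p under 0.05, as did 21.6% of all genes in that direction. Of the 5, limma-voom called 0 and DESeq2 2, both lower, beside 1.98% and 6.03% of all genes called lower by these tools. The call was met by 2.83% of genes in the lower and 1.29% in the higher direction. At an adjusted p of at most 0.05 with the same fold, 3 of the 5 passed (Supt16, Zfp131 and 1110004F10Rik, all lower), as did 10.3% of all genes in that direction. In the fit of only the 12 AKO mice, whose errors hold no fl/fl library, 4 of the 5 were called (also Thoc7), beside 7.08% of all genes called lower. With the 19 mice the same 4 were called, beside 9.57%.

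**Figure D1:**
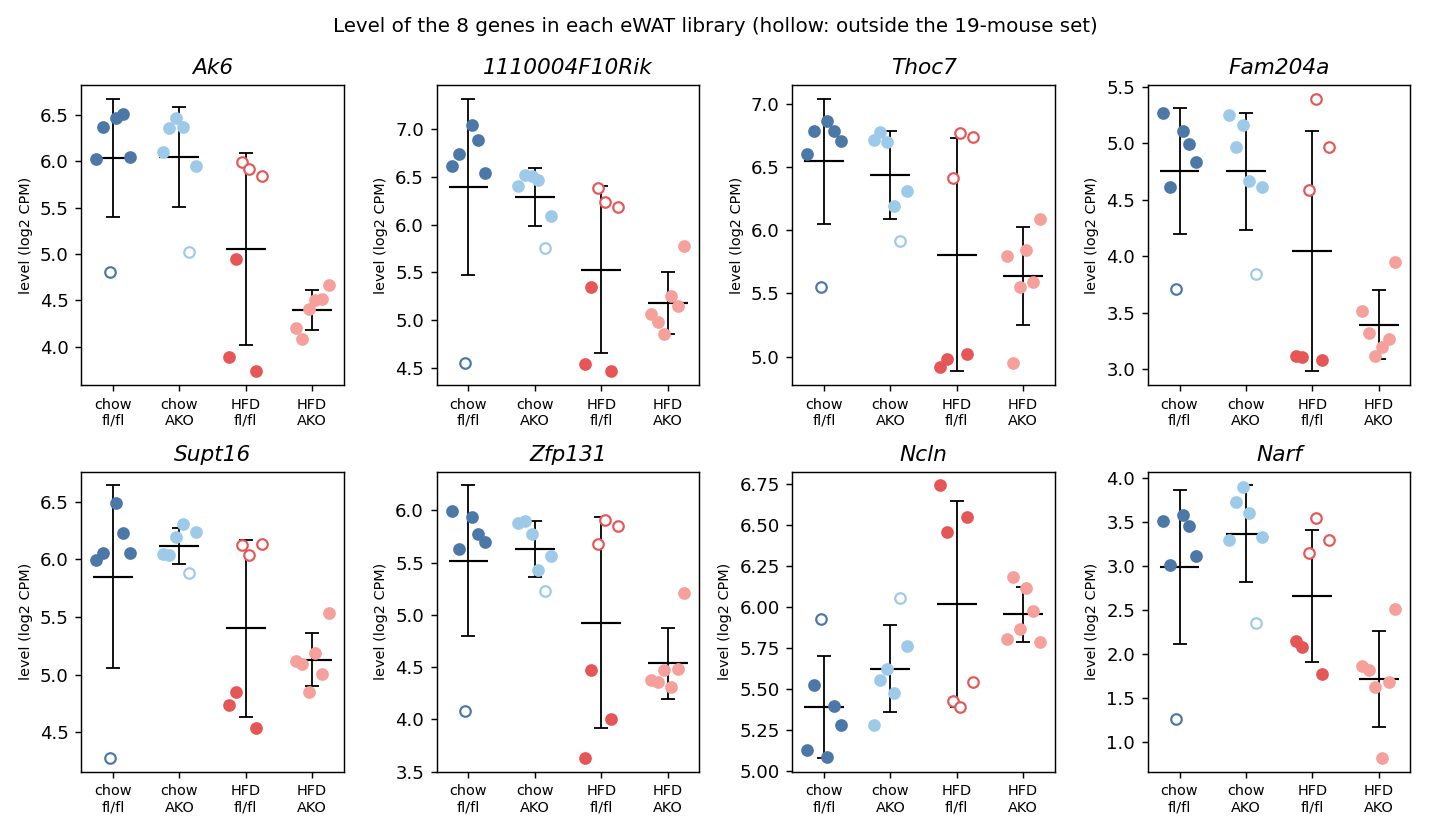
Level of each gene in each library on the log2 CPM scale, by group. Points are mice, lines with bars are the mean and SD of 6 mice, and hollow points are the 5 mice outside the 19-mouse set. For 7 genes the HFD-fed fl/fl libraries fall into 3 near the chow level and 3 well below it, and for Ncln the order is turned.

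Supt16 (ENSMUSG00000035726, GRCm38 chr14:52160414-52197416, reverse strand, 26 exons) lay at 58.9, 69.4 and 78.7 CPM (lowest, median and highest) in chow-fed AKO mice. In HFD-fed AKO mice it lay at 28.6, 34.3 and 46.2 CPM. The 6 HFD-fed libraries were all below the 6 chow-fed ones, an order shared by 4.13% of all genes. The log2 fold change was -0.98 ± 0.29 (SE) with an adjusted p of 0.0272 by edgeR. Zfp131 (ENSMUSG00000094870, chr13:119765187-119790889, reverse strand) lay at 37.4, 50.9 and 59.5 CPM on chow and 19.7, 21.3 and 36.9 CPM on HFD in the AKO mice. Its groups did not overlap either, although HFD-fed replicate 6, at 36.9 CPM, came within 1 CPM of chow-fed replicate 5. The log2 fold change of Zfp131 was -1.08 ± 0.34 with an adjusted p of 0.031 by edgeR.

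Thoc7 (ENSMUSG00000053453, chr14:13949012-13961852, reverse strand) lay at 60.1, 91.6 and 109.8 CPM on chow and at 30.7, 51.6 and 67.9 CPM on HFD in the AKO mice. Chow-fed replicate 5 lay inside the range of the HFD-fed mice, and Thoc7 had the smallest difference among the genes that were lower, -0.80 ± 0.31 on the log2 scale with an adjusted p of 0.0638 by edgeR. For 1110004F10Rik (ENSMUSG00000030663, chr7:116039397-116105210, forward strand) the levels were 53.8, 86.6 and 91.4 CPM on chow and 28.7, 34.2 and 54.6 CPM on HFD. The overlap came from chow-fed replicate 5 and HFD-fed replicate 6. Its log2 fold change was -1.11 ± 0.34 with an adjusted p of 0.0285 by edgeR.

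Ncln (ENSMUSG00000020238, chr10:81486249-81496392, reverse strand) was the gene with the opposite sign. It lay at 38.6, 47.9 and 66.2 CPM on chow and at 55.0, 60.4 and 72.6 CPM on HFD in the AKO mice, with chow-fed replicate 5 at the top of its group. The groups overlapped, whereas 2.72% of all genes had every HFD-fed AKO library above every chow-fed one. The log2 fold change of 0.32 ± 0.22 had an adjusted p of 0.262 by edgeR and an approximate 95% interval of -0.10 to 0.74. It remained under the fold change of 1.5 with the 19 mice, at 0.42 ± 0.12.

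Ak6, Fam204a and Narf were labelled in the AKO plot or chosen in a way not known, so their values carry no test. Ak6 (ENSMUSG00000078941, chr13:100650979-100666359, forward strand) lay at 32.3, 75.1 and 87.9 CPM on chow and at 16.8, 21.8 and 25.3 CPM on HFD in the AKO mice, without overlap. Its difference of -1.71 ± 0.35 on the log2 scale was the largest of the 8. Narf (ENSMUSG00000000056, chr11:121237253-121255856, forward strand) lay at 4.95, 10.9 and 14.7 CPM on chow and 1.61, 3.21 and 5.55 CPM on HFD, a difference of -1.69 ± 0.37. Its counts ran from 18 to 62 on HFD, so a single HFD-fed library of Narf carries more counting error than the other genes. Fam204a (ENSMUSG00000057858, chr19:60198586-60226701, reverse strand) lay at 14.2, 28.3 and 38.0 CPM on chow and 8.51, 9.65 and 15.3 CPM on HFD, a difference of -1.42 ± 0.36. In both Narf and Fam204a the ranges met through chow-fed replicate 5 and HFD-fed replicate 6.

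**Figure D2:**
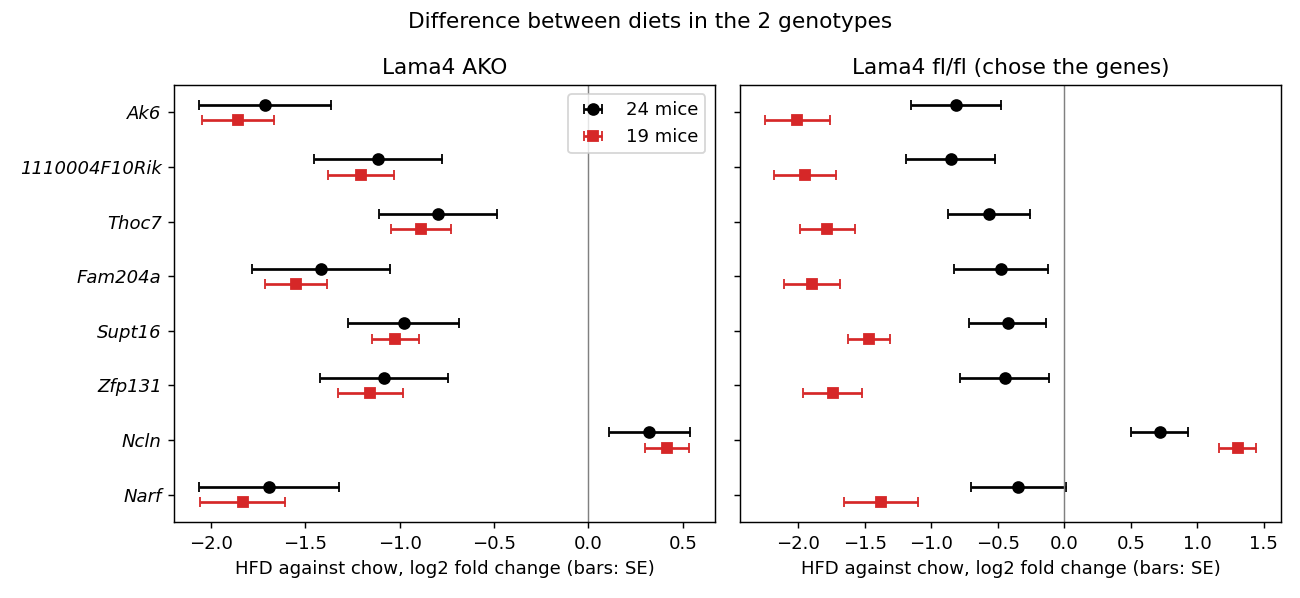
Log2 fold change of HFD against chow for each gene with its SE, in Lama4 AKO and Lama4 fl/fl mice, from the fit of 24 mice (circles) and of 19 mice (squares). In AKO mice both fits lie close together, and in fl/fl mice, whose comparison chose the genes, the values of 24 mice lie between -0.85 and 0.72 and those of 19 mice between -2.01 and 1.30.

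Cell type markers moved with the same comparison. The summed level of 6 adipocyte markers ran from 14158 to 34832 CPM in chow-fed and from 8077 to 22691 CPM in HFD-fed AKO mice. All 6 had a lower level on HFD, 5 with a nominal p under 0.05 (39.8% of all genes in either direction), and Lep, the leptin gene, was called. The sum of 8 macrophage markers ran from 2010 to 10954 CPM on chow and from 7990 to 17305 CPM on HFD, with none of the 8 called and 5 at a nominal p under 0.05. The sum of 5 mast cell markers ran from 36.6 to 419 CPM on chow and from 591 to 1937 CPM on HFD, and 4 of the 5 were called higher. Of the other lists, 1 of 4 stromal progenitor markers was called higher and 1 of 4 mesothelial markers lower, and none of 6 T cell, 4 B cell, 5 endothelial and 4 erythroid markers was called, with 0, 0, 5 and 0 of them at a nominal p under 0.05. No defining adipocyte, macrophage or mast cell marker was at 0 throughout a group. Chow-fed AKO replicate 5 had the lowest adipocyte sum (14158 CPM) and the highest macrophage sum (10954 CPM) of its group. Chow-fed AKO replicate 6 came next in both, at 14223 and 7440 CPM. HFD-fed AKO replicate 6 had the highest adipocyte sum (22691 CPM) and the lowest macrophage sum (7990 CPM) of its group. The part of tissue composition in the levels of the 8 genes was not tested, and fewer cells of a type and less RNA per cell cannot be told apart in these bulk samples. The depth of the HFD-fed AKO libraries, 9156492 to 11640690 counts, was below that of 5 of the 6 chow-fed ones, at 12166593 to 16457720, and above that of chow-fed replicate 5, at 5579590. The part of depth in the levels was not tested.

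In the fl/fl mice, whose comparison selected the genes, the same 7 genes were lower and Ncln higher on HFD. With all 24 mice, Ak6 differed by -0.81 ± 0.34, 1110004F10Rik by -0.85 ± 0.34, Thoc7 by -0.57 ± 0.31 and Ncln by 0.72 ± 0.22 on the log2 scale. Fam204a (-0.48 ± 0.35), Supt16 (-0.43 ± 0.29), Zfp131 (-0.45 ± 0.34) and Narf (-0.35 ± 0.36) differed by less. These averages covered 2 sets of libraries. Supt16 lay at 26.6, 28.7 and 23.1 CPM in HFD-fed fl/fl replicates 1, 2 and 5 and at 69.6, 65.3 and 69.8 CPM in replicates 3, 4 and 6, the latter inside the range of 63.4 to 89.5 CPM of 5 chow-fed fl/fl mice. Thoc7 lay at 30.01 to 32.3 CPM in the former 3 and at 85.1 to 109.1 CPM in the latter. Ncln showed the reverse, at 87.9 to 107.1 CPM in replicates 1, 2 and 5 and 41.7 to 46.5 CPM in replicates 3, 4 and 6.

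Chow-fed fl/fl replicate 3 lay on the other side. It had the lowest level of its group for 7 of the 8 genes, with Supt16 at 19.2, Zfp131 at 16.8 and 1110004F10Rik at 23.3 CPM, and the highest for Ncln, at 60.7 CPM. Without this mouse, chow-fed replicate 5 of the AKO mice and HFD-fed fl/fl replicates 3, 4 and 6, the fl/fl differences were larger, from -1.38 ± 0.28 for Narf to -2.01 ± 0.24 for Ak6, and 1.30 ± 0.14 for Ncln. Since these mice were left out for their expression, the larger values follow in part from leaving them out. The labels give no reason for the split of the fl/fl libraries. Whether these 4 fl/fl mice carry the label of the other diet was not tested, and if they did, the fl/fl diet differences and the genotype differences with 24 mice would not have the meaning their labels give.

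Between genotypes the values depended on those same libraries. On HFD, all 8 genes had lower levels in AKO than in fl/fl mice with 24 mice, from -0.17 ± 0.21 for Ncln to -1.04 ± 0.37 for Narf on the log2 scale. With the 19 mice, 6 of the 8 changed sign, with Thoc7 at 0.71 ± 0.19 and Ak6 at 0.11 ± 0.22, while Ncln was at -0.63 ± 0.13 and Narf at -0.21 ± 0.26. On chow, the differences of AKO from fl/fl mice were near or under their errors with 24 mice, between -0.26 ± 0.33 for 1110004F10Rik and 0.30 ± 0.35 for Narf. With the 19 mice they ran from -0.37 ± 0.18 for 1110004F10Rik to 0.26 ± 0.12 for Ncln, the largest of the 8 beside their errors. Both comparisons share fl/fl libraries with the one that chose the genes, so no test is given.

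The 7 genes with lower levels on HFD varied more than the median reference gene. Over the 24 libraries the SD of log2 CPM was 0.66 to 0.95 for the 7 genes that were lower on HFD and 0.44 for Ncln, against a median of 0.46 over all genes tested. For 20 common reference genes such as Gapdh and Hprt it had a median of 0.31 and ran from 0.12 to 0.75. Part of that spread is the diet difference that chose the genes, so it describes these libraries and is no test. Housekeeping is therefore used here as a name for their functions and not for a constant level.

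Within a group, mice that were low for 1 of the 7 genes tended to be low for the others. After the group means were removed, the correlation over 24 libraries between the 7 genes ran from 0.78 (Thoc7 and Narf) to 0.96 (1110004F10Rik and Supt16), and Ncln ran from -0.80 with Narf to -0.93 with Fam204a. These points share library, depth and tissue composition. The fl/fl libraries, whose diet comparison chose the genes, are among the 24, and their split stays after the group means are removed. These correlations are therefore a description and no test. In the 12 AKO libraries, which did not choose 5 of the genes, the group-centred level went with the first principal component computed without them. Pearson's r was -0.83 for Zfp131 (Spearman's rho -0.82, permutation p 0.00399 and 0.00525) and 0.78 for Ncln (rho 0.80, permutation p 0.00617 and 0.00236). Of these 5 genes, 4 had a permutation p, adjusted over the 8 relations computed, of at most 0.05 and Supt16 did not, with r = -0.42 and rho = -0.25 (permutation p 0.134 and 0.44). The median size of r was 0.77 for the 8 genes and 0.49 over all 15020 genes. Of all genes, 57.1% had an r at least as large in size as that of Supt16, the smallest of the 8. The permutation test was not run over all genes, so the count of 4 has no such share beside it. Without the 2 libraries farthest along the component, chow-fed replicate 5 and HFD-fed replicate 6, none of the relations passed, so the calls rest on these libraries. The values without them were r = -0.65 and rho = -0.84 for Zfp131 and r = 0.56 and rho = 0.55 for Ncln, while Supt16 turned to r = 0.46 and rho = 0.82 (adjusted permutation p 0.295 and 0.0839). Without chow-fed replicate 5 alone, none of the 5 genes passed on r, while Zfp131 had rho = -0.85 with an adjusted permutation p of 0.0302. Ak6, Fam204a and Narf are given as a description, with r of -0.75, -0.91 and -0.73 over the 12 libraries.

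**Figure D3:**
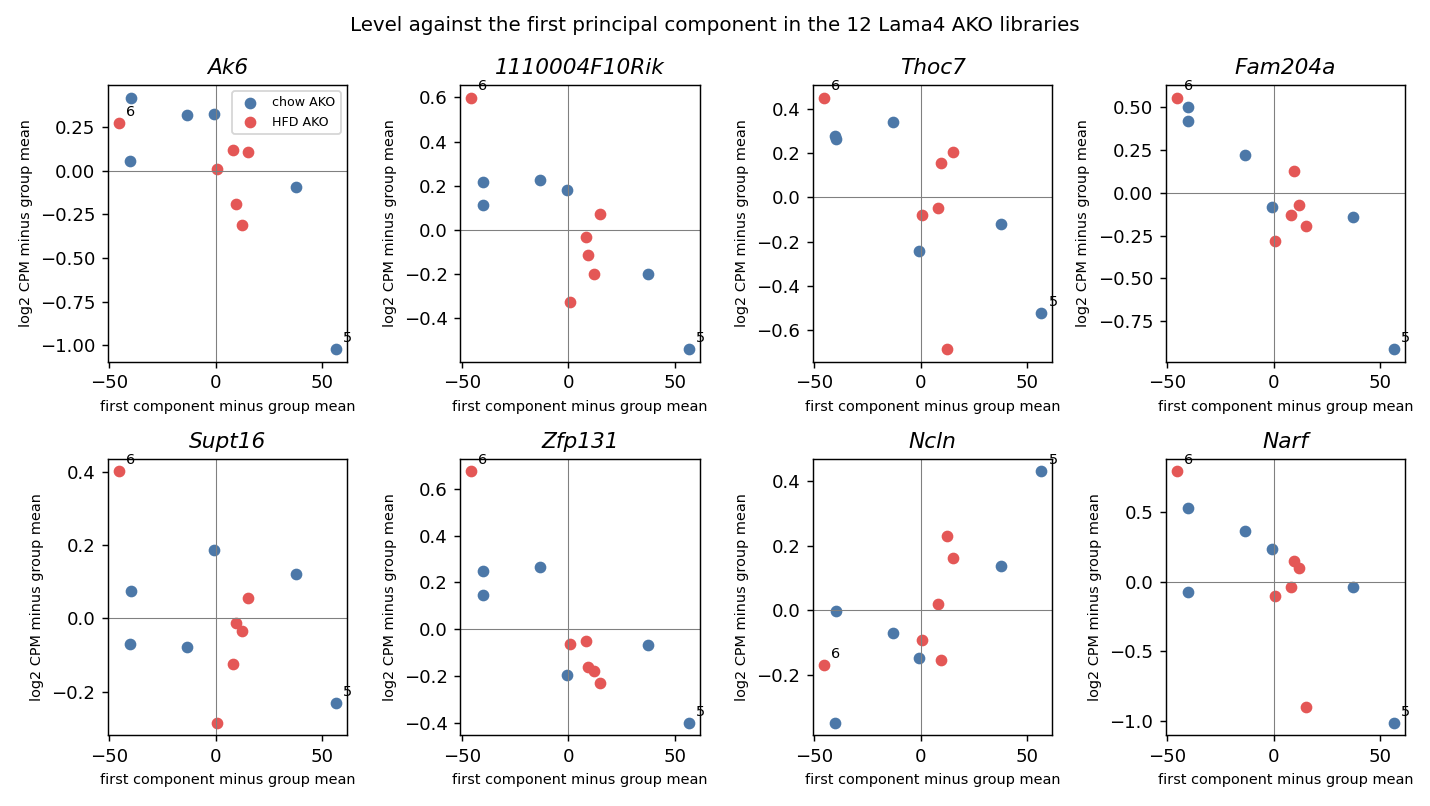
Level of each gene (log2 CPM minus the group mean) against the first principal component (score minus the group mean) in the 6 chow-fed and 6 HFD-fed Lama4 AKO libraries. The labelled points, chow-fed replicate 5 and HFD-fed replicate 6, are the ends of the horizontal axis, and r runs from -0.91 for Fam204a to 0.78 for Ncln.

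Genes most like each of the 8 were ranked by Pearson's r of group-centred log2 CPM over the 24 libraries. The ranking is a description, since it includes the fl/fl libraries. The nearest were Snrpc for Ak6 (r = 0.97), Dstn for 1110004F10Rik (0.97), Otud6b for Thoc7 (0.96), Zfp664 for Fam204a (0.96), Crnkl1 for Supt16 (0.96), Arglu1 for Zfp131 (0.98), Nsun2 for Ncln (0.96) and Fxr1 for Narf (0.94). The next were Zfp639 and Dnajc8 for Ak6, Crnkl1 and Suz12 for 1110004F10Rik, Ccdc125 and Selenos for Thoc7, and Pja2 and Ccdc125 for Fam204a. For Supt16 they were 1110004F10Rik and Suz12, for Zfp131 Ppwd1 and Cul5, for Ncln Retreg2 and Agap3, and for Narf Stim1 and Pum3. Crnkl1 and Suz12 had been labelled in the fl/fl plot too.

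Genes that work with the 8, or belong to their families, gave few calls between diets in the AKO mice. The counts at a nominal p under 0.05 in these lists stand beside 39.8% of all genes in either direction. Of 84 genes tested in 7 such lists, 3 were called, 3.57% beside 4.12% of all genes in either direction. In the list of FACT, histone chaperones and elongation factors around Supt16, 2 of 17 were called, both lower. Asf1a, a histone H3-H4 chaperone, was at -0.84 ± 0.19 (adjusted p = 0.0143 by edgeR) and Ctr9, a subunit of the PAF1 elongation complex, at -0.68 ± 0.18 (adjusted p = 0.0204). The median of that list was -0.16 on the log2 scale, and Ssrp1, the partner of Supt16 in FACT, was at -0.29 ± 0.15 (adjusted p = 0.162), not called. Around Ncln, 1 of 8 genes of the nicalin complex and translocon was called: Tmco1, a calcium channel protein of the endoplasmic reticulum, lower at -1.11 ± 0.27 (adjusted p = 0.0171), opposite in sign to Ncln. Its partners Tmem147 (-0.07 ± 0.13) and Nomo1 (-0.57 ± 0.24) were not called by edgeR, nor was Sec61a1, the channel subunit of the translocon, at 0.67 ± 0.18 with a nominal p of 0.00113. Limma-voom and DESeq2 each called 2 of these 8 genes.

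None of 14 THO-TREX and mRNA export genes around Thoc7 was called, with 6 at a nominal p under 0.05 and a list median of 0.21, and limma-voom and DESeq2 also called 0. Thoc2, the scaffold of the THO complex, was at -0.81 ± 0.26 and Thoc1 at -0.41 ± 0.14, the lowest p of the list. The 5 adenylate kinases tested of 8 gave 0 calls (4 at a nominal p under 0.05; limma-voom and DESeq2 called 1 each), with Ak8 at 1.57 ± 0.51. Of 11 genes tested of 12 in small ribosomal subunit maturation none was called (2 at a nominal p under 0.05, 0 by the other tools), Nop14 being at -0.60 ± 0.19 and Nob1 at -0.51 ± 0.22. Of 14 genes tested of 15 around the nuclear lamina none was called (5 at a nominal p under 0.05, 0 by the other tools), with Emd, which encodes emerin, at 0.43 ± 0.13 and Lemd3 at -0.65 ± 0.27. None of 15 BTB zinc finger genes was called (5 at a nominal p under 0.05, 0 by the other tools), with Zbtb11 at -0.57 ± 0.18 and Zbtb16 at -1.84 ± 0.70. The medians of the last 4 lists were -0.14, -0.11, 0.16 and -0.08. Alyref and Lemd2, members of these lists, had been labelled in the fl/fl plot and were not called in the AKO mice. Supt6, a list gene that stands in the study's key to that plot, was not called there either, at -0.16 ± 0.16. In the fl/fl mice Supt6 was at 0.35 ± 0.16 between diets, opposite in sign to Supt16.

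Of 20 common reference genes, which are used to scale RT-qPCR, none was called in the AKO mice, with 6 at a nominal p under 0.05 and 1 call each by limma-voom and DESeq2. Their median was 0.19, and Gapdh at 0.77 ± 0.21 and Gusb at 1.08 ± 0.34 had the lowest p. Gapdh lay at 22.2 to 53.1 CPM on chow and 46.9 to 78.7 CPM on HFD, while Actb lay at 6292 to 8758 CPM on chow. The reason for the low level of Gapdh was not tested. The 8 genes, of which Ak6 and Fam204a were labelled in this comparison, had a median of -1.10. The medians of the 7 partner and family lists and of the reference genes ran from -0.16 to 0.21. Diet differences chose genes among the 8, so their median beside those of the lists is a description and no test. The median of all genes was -0.003.

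**Figure D4:**
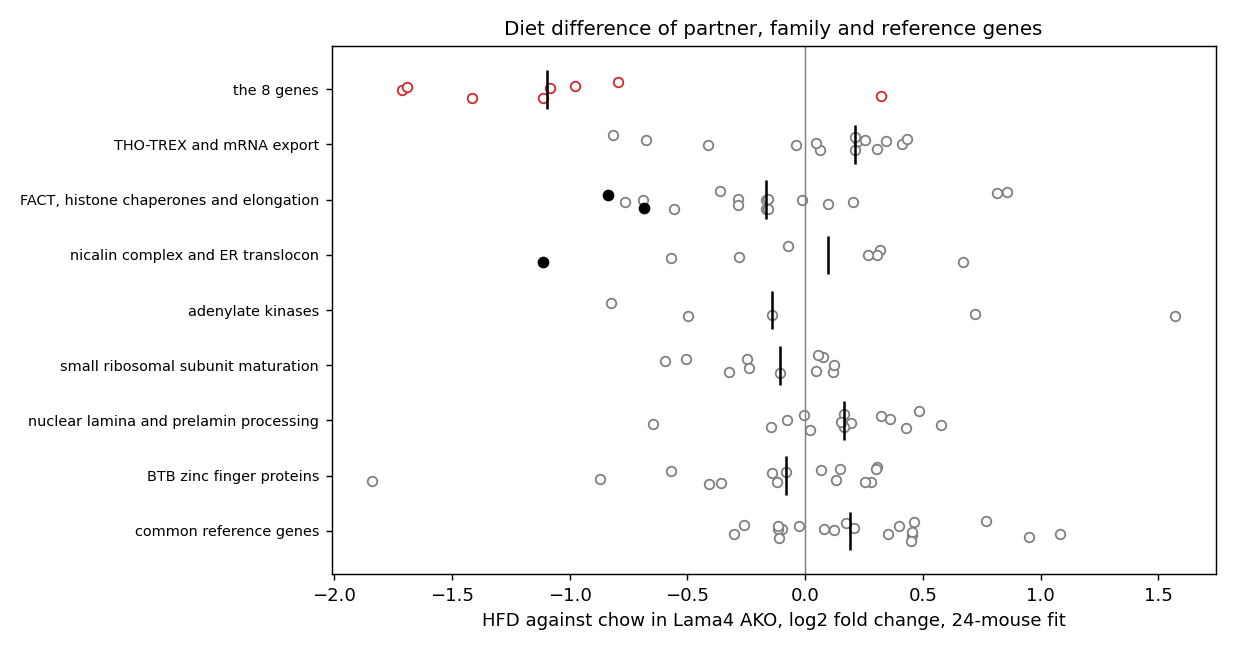
Log2 fold change of HFD against chow in Lama4 AKO mice for the 8 genes and for 8 lists of partner, family and reference genes, from the fit of 24 mice. Each point is a gene, the vertical bar the median of the list, and filled points are the 3 genes called, Asf1a, Ctr9 and Tmco1.

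Some reads of these genes may belong to neighbours. Taf9, which encodes a subunit of the TFIID transcription factor, shares up to 1026 bases of an exon with Ak6 on the same strand and has no row in the counts used here, so counts given to Ak6 may include Taf9 transcripts that end there. Rad17, on the opposite strand, shares 73 bases with Ak6 and was at 0.25 ± 0.14 on the log2 scale in the AKO diet comparison. Rpgrip1 shares up to 986 bases with Supt16 on the opposite strand but had 535 counts over all libraries against 17444 for Supt16. 1700003G18Rik, Gm11100 and 4933412A08Rik overlap exons of 1110004F10Rik, Thoc7 and Fam204a on the opposite strand and have no row in the counts used here. Ncln, Narf and Zfp131 share no annotated exon with another gene.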

How the data were processed

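Total RNA from eWAT of 24 mice was made into QuantSeq 3′ libraries. The authors counted reads per gene on GRCm38 and deposited raw counts, and the values analysed are those deposited counts. A second deposited table holds the counts divided by size factors as a normalized signal (the submitters' processing notes name R 4.0.3 and DESeq2 1.30) and gave symbols and positions only. The counts table holds 16730 genes, each with a total of at least 72 counts.

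The tools used on the counts were edgeR 4.0.16, limma 3.58.1 and DESeq2 1.42.0 under R 4.3.3. Genes reaching 1 CPM in 3 or more libraries were kept, scaled by TMM and fitted with 1 coefficient per group over all 24 mice, following the study's filter and call criteria. P-values were adjusted by Benjamini-Hochberg over all genes tested. Log2 CPM used a prior count of 2, and permutation tests used 100000 permutations within diet groups. Depth was 5579590 to 18764516 counts per library, and counting precision is lowest for Narf. Positions and exons came from the GENCODE annotation of GRCm38 and promoters from RefSeq. Fits were tested on simulated data. Libraries of a group were checked for duplicates: the lowest chi-square over its degrees of freedom among the 60 pairs was 5.72. Alternatives covered scaling, filters, tools, mice left out, the 19 mice, a replicate block and the call criteria. The genes and lists were chosen with earlier results of these data known. Genes named are the 8, list genes called or, with fewer than 2 called, the 2 of lowest p, the 3 genes most like each of the 8, exon-sharing genes and Lama4. 1 list gene that this rule names is not reported here. Ssrp1, Tmem147, Nomo1, Alyref, Lemd2, Supt6, Lep, Hprt and Actb are outside this rule and were named after their values were seen.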

Additional observations from a re-analysis of the deposited data

Results flagged for a closer look

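Each of the 8 genes was examined in each group of 6 mice for a mouse whose gap to its nearest neighbour was large beside the range of the group, by Dixon's test at the 95% level. Of 32 groups 8 held such a mouse. A single test flags about 1 in 20 by chance. The 8 genes share the mice and go together within groups, so the 32 tests are not independent and their count is no measure of excess. Replicate 3 of the chow-fed fl/fl mice was flagged for 6 genes. On the log2 CPM scale it lay at 4.81 for Ak6, 4.55 for 1110004F10Rik, 5.55 for Thoc7, 4.28 for Supt16, 4.08 for Zfp131 and 1.26 for Narf, in each case below the other 5 mice. This mouse belongs to the comparison that chose the genes. It is in neither group compared in the AKO test and does not enter the fold changes there. The fit of all mice takes the spread of each gene from all groups, so this mouse does enter the errors of that test. Without this mouse, 2 of the 5 genes tested in AKO mice were called, against 0 with all mice.

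Replicate 5 of the chow-fed AKO mice was flagged for Ak6, at 5.02, below the other 5. It was the shallowest library, with 5579590 counts. Replicate 6 of the HFD-fed AKO mice was flagged for Zfp131, at 5.21, above the other 5, and its summed adipocyte markers were the highest of its group, at 22691 CPM. The part of depth or tissue composition in these values was not tested.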

How the results depend on the processing

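Of the 5 genes tested between diets in AKO mice, 0 were called with all 24 mice. DESeq2 called 2, an adjusted p of at most 0.05 gave 3, and 4 were called with the 19 mice, with limma-voom on the 19 mice and in the fit of only the AKO mice. Leaving out single mice gave 0 to 2, the 2 without chow-fed fl/fl replicate 3. Over all alternatives the adjusted p ran from 7.27e-05 to 0.0638 for 1110004F10Rik and from 0.00045 to 0.123 for Thoc7. The direction of all 8 genes between diets was kept in both genotypes under every alternative. Genes called numbered 619 in the main analysis, 1315 with DESeq2, 2332 with the 19 mice, 2362 with limma-voom on them, 1388 with only the AKO mice, 2422 at an adjusted p of at most 0.05, 389 at a fold change of 2 and 299 to 1169 without single mice, the lowest without chow-fed AKO replicate 3 and the highest without replicate 5. With limma-voom on all mice 307 were higher and 297 lower, against 194 and 425 in the main analysis. Genes called in the 8 partner, family and reference lists numbered 3, and 5 without a filter, 6 with limma-voom, 7 with DESeq2, 15 with the 19 mice, 16 with limma-voom on them, 8 with only the AKO mice, 13 by adjusted p, 1 at a fold change of 2 and 1 to 8 without single mice. Without chow-fed AKO replicate 5 and HFD-fed AKO replicate 6 together, an alternative chosen after seeing the data, 0 of the 5 genes, 1564 genes in all and 10 list genes were called. Relations with the first component passed for 7 of 8 genes, 3 of them given as a description only. They passed for 0 without the 2 farthest libraries and for 1 to 7 without single mice, and the test was not run over all genes. The genotype difference on HFD changed sign for 6 genes, to 0.11 with the 19 mice and 0.21 with limma-voom on them for Ak6, 0.33 and 0.30 for Fam204a, 0.50 and 0.50 for Zfp131, 0.37 and 0.40 for 1110004F10Rik, 0.71 and 0.67 for Thoc7 and 0.43 and 0.42 for Supt16. The causes of these changes were not tested. Correlations between the deviations of same-numbered mice ran from -0.31 to 0.18 between diets in AKO mice and from -0.48 to 0.31 in fl/fl mice. Between genotypes they ran from -0.35 to 0.71 on chow and from -0.20 to 0.56 on HFD. In each of these 2 genotype comparisons 3 of 6 pairs were over 0.1. Whether the replicate numbers pair mice was not tested, and the main fit treats the mice as unpaired. With the replicate block 0 of the 5 genes were called. Depth limits Narf most, with as few as 18 counts in a library.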
